A study of Arabidopsis thaliana with 9 samples.

Results

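The transcripts described here carry the names of class III peroxidases, written in the deposited table as PER and a number. The rule took every protein-coding gene with such a name, and it found 70 of the 32833 genes in the table, of which 27628 are protein-coding. One of the 70, PER1 (AT1G48130), goes against the label: RefSeq annotates it as a 1-cysteine peroxiredoxin, a different kind of enzyme, and it was listed at 0 in all 9 samples. The name PER2 was given to 2 neighbouring loci (AT1G05240 and AT1G05250), whose proteins are 100% identical. RefSeq also describes 5 genes outside the rule with the product name that 57 of the members carry. Among these, AT3G01420 is named DOX1 in the deposited table, and the others have no name there.

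Class III peroxidases are haem enzymes that plants secrete into the cell wall or the vacuole. They use hydrogen peroxide to oxidize phenolic compounds, which cross-links wall polymers and polymerizes lignin, and some of them produce hydrogen peroxide themselves in the oxidative burst that follows pathogen attack. In Arabidopsis many family members are known from roots and root hairs, whereas PER33 and PER34 are known for the apoplastic burst in leaves.

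Shoots of *Arabidopsis thaliana* Columbia-0, the wild-type accession common to all groups, were compared at an age of 4 weeks in 3 groups of 3 samples. Control plants were kept without stress, the submergence group stood under still water for 30 min, and the flooding group was under water moving at 8 L/s for 30 min. Each sample pooled 10 plants, so the spread between samples is a spread between pools. Transcript levels are given as FPKM, sequenced fragments scaled to the length of the transcript and to the mapped reads of the sample, which allows levels of different genes to be set side by side.

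The label of shoot tissue was checked on marker genes. All 6 leaf markers were measured, with sums between 35554 and 50501 FPKM per sample, and 0 of 14 root markers reached a mean of 0.5 FPKM, with sums between 0.17 and 0.56 FPKM. All 6 xylem markers were measured, with sums between 34.46 and 74.97 FPKM. Of 10 markers of the shoot apex and flower, 2 reached a mean of 0.5 FPKM. These were STM and KNAT1, a pair of genes of the shoot apical meristem. The samples differed in the summed FPKM of this pair. The sum was 2.91, 0.03 and 1.90 FPKM in control samples 1 to 3, 9.45, 4.38 and 0.06 FPKM in submergence samples 1 to 3, and 4.32, 6.04 and 0.08 FPKM in flooding samples 1 to 3. Control 2, submergence 3 and flooding 3 thus stood apart from the other samples in this pair, and the results that rest on them are given with and without them. The other listed markers stayed below a mean of 0.5 FPKM and went different ways. LFY, up to 0.37 FPKM, was also lowest of its group in each of these samples. In contrast, SEP1 was highest in flooding 3, at 1.47 FPKM, AG was highest in control 2, at 0.29 FPKM, and CLV3 was at 0 throughout. The term apex markers below means STM and KNAT1 alone.

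The 4 members called up under flooding were PER4 (AT1G14540, chr1:4974021-4975705), PER62 (AT5G39580, chr5:15847065-15849141), PER71 (AT5G64120, chr5:25659257-25661007) and PER31 (AT3G28200, chr3:10517977-10519516). Their promoters are shown because these genes rose under flooding, and that of PER5 is shown as the neighbour of PER4 that was listed at 0 in all 9 samples. Each sequence is the 250 bases before the annotated start of the gene, read 5′ to 3′ on the strand of the gene from RefSeq TAIR10.1. They lie at chr5:15849142-15849391 (minus strand), chr5:25661008-25661257 (minus strand), chr3:10517727-10517976 (plus strand), chr1:4975706-4975955 (minus strand) and chr1:4978672-4978921 (plus strand), in the order printed. Capitals mark the W-box core TTGAC, the core of the site bound by WRKY factors of the defence response, and the element CGCGTT, which is bound by calmodulin-binding CAMTA factors, each searched on both strands.
PER62 promoter: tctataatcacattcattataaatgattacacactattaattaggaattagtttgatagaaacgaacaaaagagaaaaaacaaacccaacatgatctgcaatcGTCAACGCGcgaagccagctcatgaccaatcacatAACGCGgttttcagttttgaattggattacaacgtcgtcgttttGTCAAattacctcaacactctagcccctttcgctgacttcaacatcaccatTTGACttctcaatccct
PER71 promoter: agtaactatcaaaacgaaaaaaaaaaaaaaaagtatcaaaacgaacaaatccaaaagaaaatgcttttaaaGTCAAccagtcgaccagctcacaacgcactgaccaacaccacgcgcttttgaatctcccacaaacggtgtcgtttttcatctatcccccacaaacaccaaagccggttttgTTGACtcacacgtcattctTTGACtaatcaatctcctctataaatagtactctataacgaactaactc
PER31 promoter: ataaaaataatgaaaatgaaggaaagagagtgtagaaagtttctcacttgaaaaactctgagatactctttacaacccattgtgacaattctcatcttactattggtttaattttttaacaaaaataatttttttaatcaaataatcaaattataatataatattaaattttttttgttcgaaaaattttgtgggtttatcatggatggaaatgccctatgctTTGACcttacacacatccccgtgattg
PER4 promoter: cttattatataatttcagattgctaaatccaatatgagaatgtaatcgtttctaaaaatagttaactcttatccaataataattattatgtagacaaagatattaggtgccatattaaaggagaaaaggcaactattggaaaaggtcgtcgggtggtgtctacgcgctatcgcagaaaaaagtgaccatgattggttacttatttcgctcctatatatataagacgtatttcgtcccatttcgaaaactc
PER5 promoter: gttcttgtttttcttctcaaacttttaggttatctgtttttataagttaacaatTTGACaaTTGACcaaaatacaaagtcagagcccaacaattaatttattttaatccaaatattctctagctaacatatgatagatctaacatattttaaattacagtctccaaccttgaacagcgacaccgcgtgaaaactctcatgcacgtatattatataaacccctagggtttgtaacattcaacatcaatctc
The PER62 promoter holds 3 W-box cores and 2 CGCGTT elements. The W-box core that spans bases 147 to 143 before the gene overlaps the CGCGTT element at bases 144 to 139, so the capitals run together there. The PER71 promoter holds 3 W-box cores, 2 of them within the last 68 bases before the gene. PER31 has 1 core, at bases 27 to 23. These letters do not occur in the PER4 window, whereas PER5 has 2 W-box cores that lie close together. Of all 27443 promoters of the same length, 44.9% hold a W-box core and 14.1% hold at least 2, and 29 of the 70 members hold at least 1. The element CGCGTT is in 2.59% of all promoters and in 5 of the 70 members. Only these exact letters were searched, so other forms of either site are not marked in any window. A match describes the letters and says nothing of binding.

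The family was expressed very unevenly in these shoots. Of the 70 members, 12 were listed at 0 in all 9 samples and another 26 stayed below 0.5 FPKM in every sample. A mean of at least 0.5 FPKM over the 9 samples was reached by 30 members, a mean of at least 10 FPKM by 9 and a mean of at least 50 FPKM by 4. Members with a mean under 0.5 FPKM over the samples of a comparison were not tested in it, which left 39 members untested throughout and 30, 30 and 31 tested in the 3 comparisons. The 12 at 0 include PER5, the neighbour of PER4.

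PER42 alone made up most of the summed signal. Its level was 967, 824 and 897 FPKM in the controls, 994, 820 and 697 FPKM under submergence and 810, 991 and 629 FPKM under flooding. The groups overlapped throughout, and the lowest value of each group was in the sample with the least STM and KNAT1. PER42 accounted for between 58.8% and 68.1% of the summed FPKM of the members, which ran from 1037 to 1533 FPKM per sample, or from 0.135% to 0.201% of all FPKM. Its log2 fold change was -0.11 (SE 0.14, adjusted p = 0.646) under submergence and -0.17 (SE 0.17, adjusted p = 0.520) under flooding.

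**Figure D1:**
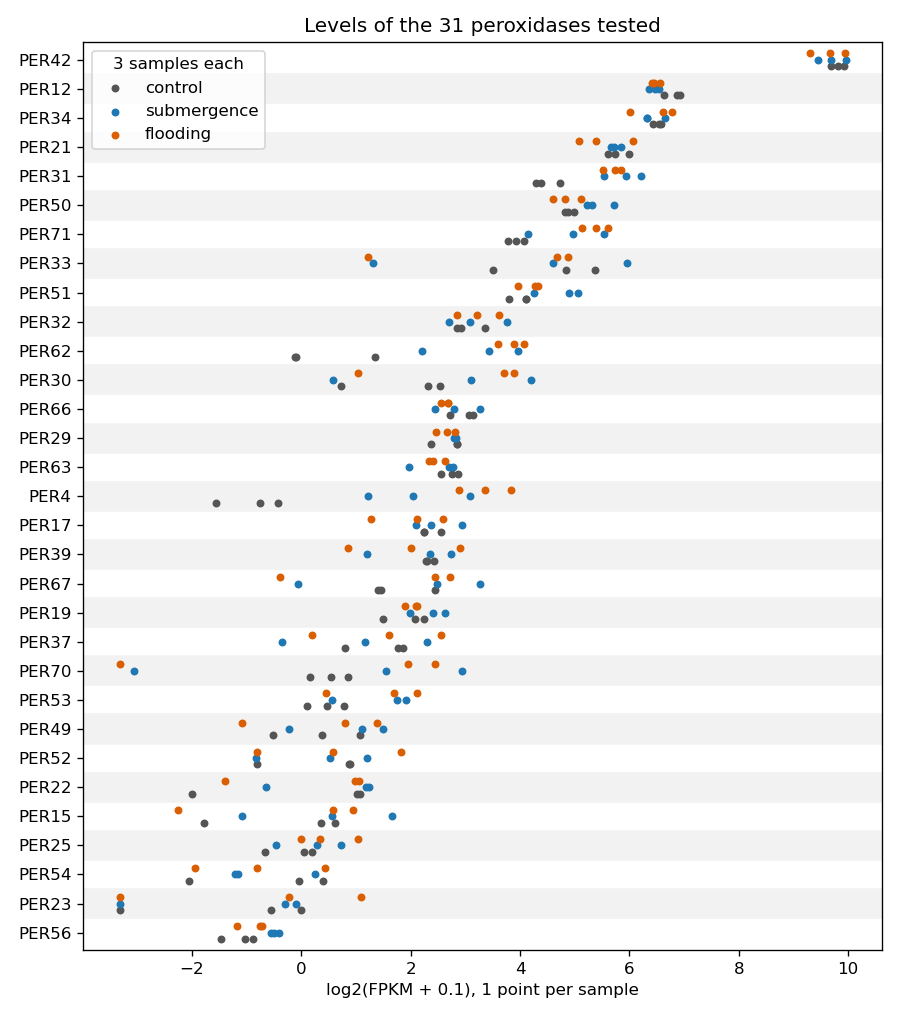
Levels of the 31 members tested in at least 1 comparison, as log2(FPKM + 0.1), with 1 point per sample and 3 samples in each of control, submergence and flooding, ordered by the mean over the 9 samples. PER42 stands above all others, PER4 and PER62 are lowest in the 3 control samples, and PER33, PER30 and PER70 spread widely within groups.

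After PER42, the order of mean levels over the 9 samples was PER12 (96.4 FPKM), PER34 (89.9 FPKM), PER21 (52.0 FPKM), PER31 (44.9 FPKM), PER50 (33.9 FPKM), PER71 (29.5 FPKM) and PER33 (25.1 FPKM). PER12 and PER34 are neighbours in this order whose ranges overlap, 81.9 to 121 FPKM against 64.3 to 110 FPKM. The order pools control and stressed samples. In the controls alone the means were 29.8 FPKM for PER50, 27.0 FPKM for PER33, 22.3 FPKM for PER31 and 15.2 FPKM for PER71, so PER31 and PER71 stood lower there. The ranges of PER50, PER71 and PER33 also overlap, since PER33 alone spans 2.23 to 61.7 FPKM.

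In still water, 4 of the 30 members tested rose and 1 fell. Over all 18814 genes tested, 9.03% rose and 8.45% fell, at a Benjamini-Hochberg adjusted p under 0.05 in limma. The members called up were PER4, PER62, PER31 and PER50, and the member called down was PER12. Before adjustment, 7 members had a p under 0.05 upward and 1 downward, where 14.3% and 17.6% of all genes did. In 6 members the submergence samples all lay above the controls, where 16.6% of all genes did so, and in 1 member they all lay below, where 21.9% did. The median log2 fold change of the members was 0.13, against -0.031 over all genes.

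In moving water, 4 of the 30 members tested rose and 1 fell, where 11.4% of all 18806 genes tested rose and 17.2% fell. The members called up were PER4, PER62, PER71 and PER31, and PER12 was again the member called down. Before adjustment the counts were 4 and 2, where they were 2714 and 4898 of all 18806 genes, the second member downward being PER66. All flooding samples lay above all controls in 4 members (15.8% of all genes) and below in 2, PER12 and PER66 (30.8% of all genes). The median log2 fold change was 0.0063 in the members and -0.10 over all genes. Both stress groups were compared with the same 3 control samples.

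**Figure D2:**
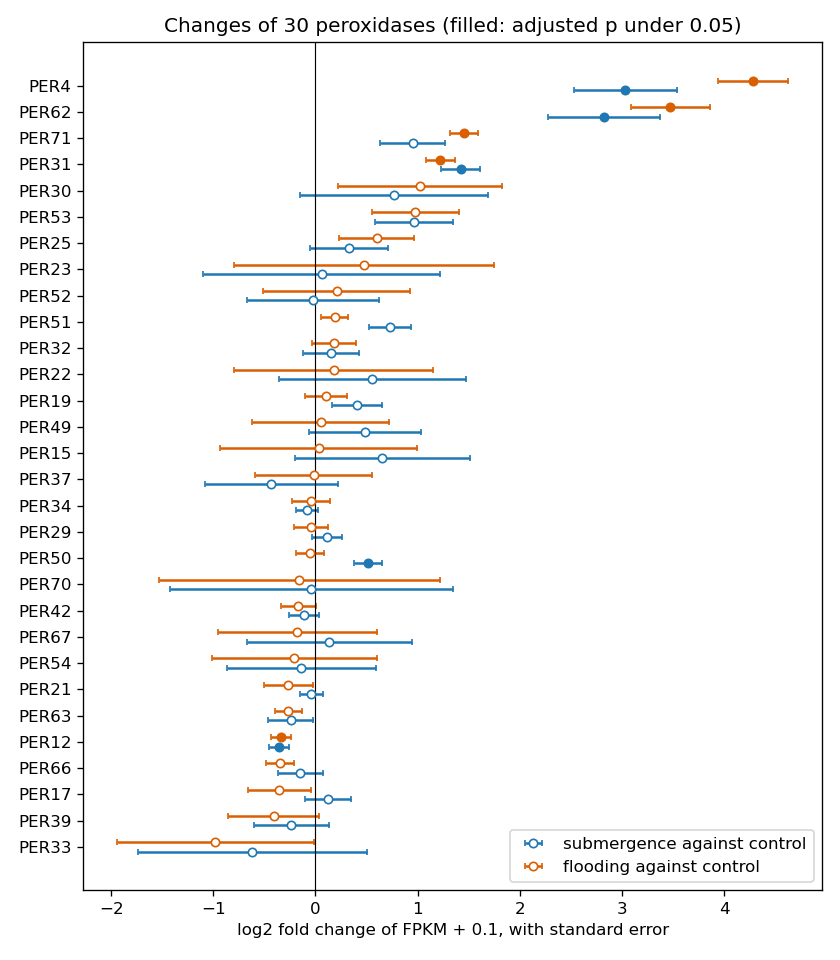
Log2 fold change of FPKM + 0.1 against control with its standard error for the 30 members tested in both comparisons, for submergence and for flooding (3 samples against 3 each), ordered by the flooding value. Filled points have an adjusted p under 0.05, and PER4 and PER62 lie farthest to the right under both stresses.

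PER4, a peroxidase of pathogen responses in Arabidopsis leaves, changed most. It was at 0.64, 0.24 and 0.49 FPKM in the controls, at 2.24, 4.01 and 8.36 FPKM under submergence and at 10.2, 7.33 and 14.3 FPKM under flooding. Every stressed sample lay above every control, while the submergence and flooding samples overlapped. On the scale of FPKM + 0.1 the rise was 8.18-fold under submergence (log2 3.03, SE 0.50, adjusted p = 0.00880) and 19.5-fold under flooding (log2 4.28, SE 0.35, adjusted p = 0.000109). The size of the PER4 rise depended on the setting: without the 3 samples low in apex markers it was 4.69-fold under submergence and 13.2-fold under flooding, and with a pseudocount of 1 it was 3.69-fold and 7.77-fold. In bulk samples, a change in the number of cells that hold a transcript and a change in its level per cell cannot be told apart.

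PER62, known from responses to pathogens and elicitors, followed the same order of group means from a slightly higher base. It was at 0.82, 0.84 and 2.44 FPKM in the controls, at 4.50, 10.7 and 15.5 FPKM under submergence and at 14.8, 11.9 and 16.7 FPKM under flooding. The controls lay below all stressed samples, while the submergence and flooding samples overlapped. The rise was 7.07-fold under submergence (log2 2.82, SE 0.55, adjusted p = 0.0150) and 11.1-fold under flooding (log2 3.47, SE 0.38, adjusted p = 0.000549). With a pseudocount of 1 the PER62 rise was 4.52-fold and 6.80-fold. The submergence call was lost without control 1, without control 2, or without the 3 samples low in apex markers, in which case the log2 value was 2.20 with an adjusted p of 0.132.

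PER71 encodes the closest relative of PER62 among the members that rose, with 74.2% identical residues. It was already well expressed in the controls, at 15.2, 16.8 and 13.6 FPKM, and reached 17.6, 31.1 and 46.1 FPKM under submergence and 41.8, 35.1 and 48.7 FPKM under flooding. Both stress groups lay above the controls without overlap, with submergence 1 only just above them. Under flooding the rise was 2.73-fold (log2 1.45, SE 0.14, adjusted p = 0.000244). Under submergence the log2 value of 0.95 (SE 0.32) did not pass the threshold, with an adjusted p of 0.0862. PER71 was also the 1 member whose highest value in each group was in the sample low in STM and KNAT1, a pattern found in 2.51% of the 18856 genes with a mean of at least 0.5 FPKM. Leaving those samples out kept the flooding call of PER71 (log2 1.41, SE 0.12, adjusted p = 0.00110), and under submergence gave 0.70 (SE 0.28, adjusted p = 0.244). With the summed apex markers as a covariate over all 9 samples, PER71 passed under both stresses, with log2 values of 1.07 (SE 0.20, adjusted p = 0.00750) and 1.56 (SE 0.20, adjusted p = 0.000666).

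PER31 is 1 of 5 members with a single coding exon, and it changed with little spread. Its level was 20.8, 26.6 and 19.6 FPKM in the controls, 46.3, 73.9 and 61.4 FPKM under submergence and 45.5, 53.0 and 57.5 FPKM under flooding. Both stress groups lay clear of the controls and overlapped with each other. The rise was 2.68-fold under submergence (log2 1.42, SE 0.19, adjusted p = 0.00404) and 2.33-fold under flooding (log2 1.22, SE 0.14, adjusted p = 0.000680). PER4 and PER31 were called up in both stresses under all 16 alternative settings.

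**Figure D3:**
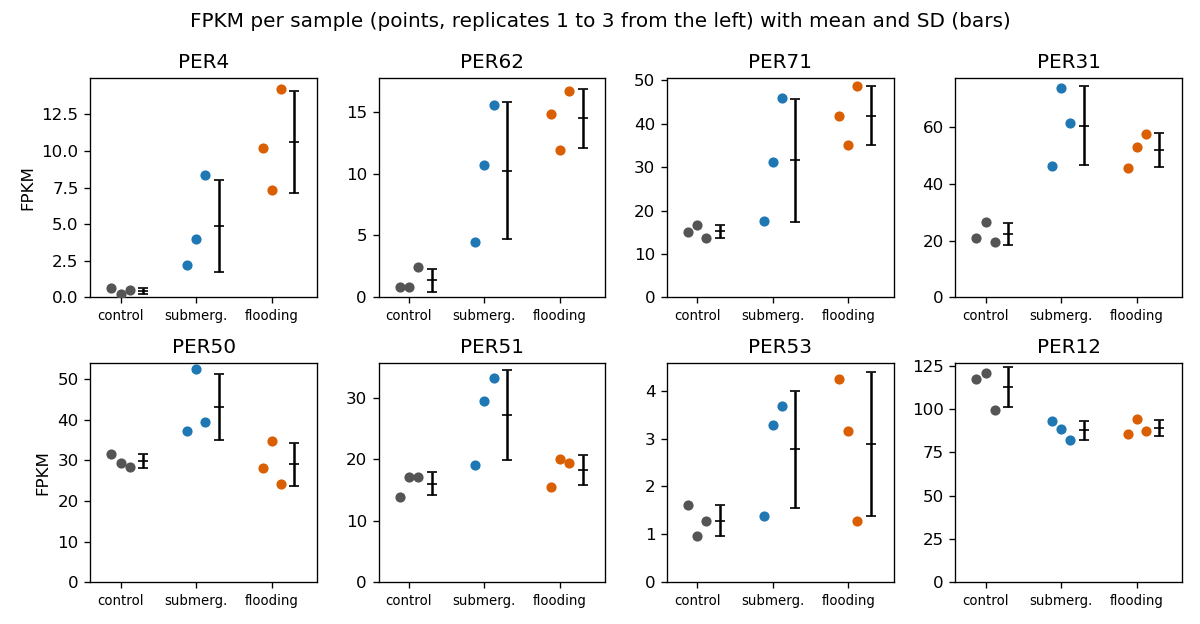
FPKM of 8 members in each sample, as points for replicates 1 to 3 from the left, with the mean and SD of 3 samples as bars to the right of each group. The stressed samples of PER4, PER62, PER71 and PER31 lie above all controls, those of PER12 lie below all controls, and PER50 and PER51 stand highest under submergence.

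PER50 and PER51 are neighbouring genes on chromosome 4 whose proteins are 89.4% identical. PER50 was at 31.7, 29.3 and 28.3 FPKM in the controls, at 37.2, 52.4 and 39.6 FPKM under submergence and at 28.1, 34.7 and 24.1 FPKM under flooding. Its submergence samples lay above those of both other groups, and the rise over control was 1.43-fold (log2 0.52, SE 0.13, adjusted p = 0.0408). PER50 gave a log2 value of -0.052 (SE 0.14, adjusted p = 0.815) for flooding against control, and that sign turned under a median-of-ratios rescaling. The PER50 call under submergence was lost in 10 of 16 alternatives, among them the omission of submergence 3 or of any control sample. Over all 16 alternatives its adjusted p ran from 0.0186 to 0.183.

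PER51 showed values of 13.9, 17.2 and 17.1 FPKM in the controls, 19.0, 29.6 and 33.2 FPKM under submergence and 15.5, 20.0 and 19.4 FPKM under flooding. All submergence samples lay above the controls and submergence 1 fell inside the flooding range. The log2 value of PER51 under submergence was 0.73 (SE 0.21, adjusted p = 0.0548), and under flooding it was 0.19 (SE 0.13, adjusted p = 0.342). The transcripts of the pair share 84 stretches of 50 identical bases, so the split of reads between them is uncertain.

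PER12, the second most abundant member, was the one that fell. It was at 117, 121 and 99.5 FPKM in the controls, at 92.8, 88.5 and 81.9 FPKM under submergence and at 85.4, 94.0 and 87.0 FPKM under flooding. All stressed samples lay below all controls. The level was 0.781 of control under submergence (log2 -0.36, SE 0.098, adjusted p = 0.0476) and 0.791 of control under flooding (log2 -0.34, SE 0.099, adjusted p = 0.0386). Both PER12 calls were close to the threshold: omission of control 1 or control 2 ended both, as did omission of the 3 samples low in apex markers, which gave adjusted p of 0.312 and 0.142, and the flooding call was lost under a median-of-ratios rescaling.

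Moving water was also compared directly with still water. According to the paper, flooded plants were anchored in an open water channel and submerged plants stood in a plastic container. Effects of flow and of these settings cannot be told apart in this comparison. Of the 31 members tested, 0 were called in limma, as were 0 of 18864 genes (0.0%), and each alternative setting run called 0 members too. Before adjustment PER4 was higher under flooding and PER50 and PER51 were lower at a p under 0.05, where 4.88% of all genes were higher and 9.85% lower. The log2 difference of flooding from submergence was 1.25 (SE 0.47, adjusted p = 0.297) for PER4. It was 0.65 (SE 0.42) for PER62, 0.50 (SE 0.33) for PER71 and -0.20 (SE 0.18) for PER31. The smallest adjusted p of a member was 0.235, for PER50, with a log2 difference of -0.57 (SE 0.18). The flooding samples lay below all submergence samples in 2 members, PER50 and PER56, where 15.4% of all genes did so, and above in 0 members, where 6.2% did. The SE of this log2 difference ran from 0.092 (PER12) to 1.98 (PER70) over the members, so the precision varied strongly between them.

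Genes were also grouped by known role. The lists were chosen with earlier results of these data known, so their counts are not independent of those results. A list of 13 peroxidases of defence and the oxidative burst had 10 tested genes, of which 2 rose under submergence (PER4 and PER62), 3 rose under flooding (PER4, PER62 and PER71) and 0 fell in either. Of all genes, 9.03% rose and 8.45% fell under submergence, and 11.4% rose and 17.2% fell under flooding. The median log2 fold change of these 10 was -0.033 under submergence and 0.095 under flooding, against -0.031 and -0.10 over all genes.

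The peroxidases best known for the leaf burst, PER33 and PER34, were not called against control or between the stresses, except for PER33 in the fit with an apex marker covariate. PER34 was at 92.9, 86.2 and 95.4 FPKM in the controls, 80.3, 80.2 and 101 FPKM under submergence and 110, 98.2 and 64.3 FPKM under flooding. The 3 groups of PER34 overlapped, with log2 values of -0.078 (SE 0.11, adjusted p = 0.667) and -0.045 (SE 0.19, adjusted p = 0.889). PER33 ranged from 11.2 to 41.1 FPKM in the controls, from 2.38 to 61.7 FPKM under submergence and from 2.23 to 29.2 FPKM under flooding. The log2 values of PER33 were -0.62 (SE 1.12, adjusted p = 0.753) and -0.98 (SE 0.96, adjusted p = 0.498). The transcripts of PER33 and PER34, whose proteins are 92.7% identical, share 99 stretches of 50 bases, and their split is uncertain.

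PER21 was at 63.5, 48.5 and 53.3 FPKM in the controls, 52.3, 57.4 and 50.4 FPKM under submergence and 41.8, 67.0 and 33.6 FPKM under flooding, again with overlap between the groups. PER53, known from wounding and nematode attack, was at 1.62, 0.97 and 1.28 FPKM in the controls, 1.38, 3.28 and 3.67 FPKM under submergence and 4.25, 3.15 and 1.27 FPKM under flooding. Submergence 1 and flooding 3 of PER53 fell inside the control range, and its log2 values of 0.96 (SE 0.38, adjusted p = 0.133) and 0.98 (SE 0.42, adjusted p = 0.128) did not pass. The remaining tested members of the list, PER37, PER52 and PER54, stayed between 0.14 and 5.79 FPKM and were not called in any comparison.

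A list of 9 genes of lignin and the Casparian strip had 5 tested genes, of which 1 rose under each stress. Over all genes, 9.03% rose under submergence and 11.4% under flooding. The gene of the list that rose, AT4G33420, has no name in the deposited table and is outside the rule, but RefSeq describes it as a peroxidase. It was at 3.80, 6.98 and 5.17 FPKM in the controls, at 8.77, 18.8 and 17.3 FPKM under submergence and at 15.4, 12.6 and 15.9 FPKM under flooding. All stressed samples of AT4G33420 lay above all controls, with log2 values of 1.44 (SE 0.33, adjusted p = 0.0266) and 1.48 (SE 0.21, adjusted p = 0.00214). The named members of this list that were tested were PER66, PER17, PER39 and PER25.

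PER66, which has been tied to lignification of xylem vessels, was at 8.32, 8.77 and 6.47 FPKM in the controls, 9.50, 5.32 and 6.82 FPKM under submergence and 5.74, 6.31 and 6.32 FPKM under flooding. Its flooding samples lay just below the controls, with a log2 value of -0.34 (SE 0.14, adjusted p = 0.102). PER17, PER39 and PER25 stayed between 0.53 and 7.61 FPKM with overlapping groups, and 0 of them were called. PER39 is also the 1 tested gene of 3 peroxidases that the root regulator UPB1 represses.

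Peroxidases of root hairs and seeds were at the bottom of the range. Among 5 root hair genes the highest value in any sample was 0.07 FPKM, and in a pair of seed genes it was 0.21 FPKM. None of these genes was tested. The same shoots held 0 of 14 root markers above the minimum.

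In gene structure the family was fairly uniform. By RefSeq, 49 members have 4 coding exons, 13 have 3 and 5 have 1, with a median protein length of 329 residues. There are 12 pairs of members that are adjacent genes, with a median protein identity of 75.2%, against 37.4% over all 2415 pairs. PER62 and PER71 lie far apart on chromosome 5, and PER4 shares 39.1% and 38.9% of residues with them.

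The relatives and neighbours of the members that rose were then read. PER5, adjacent to PER4 and 71.3% identical in protein, was listed at 0 in all 9 samples. PER63, 77.1% identical to PER31 and likewise built of a single coding exon, was at 7.15, 6.63 and 5.80 FPKM in the controls, 6.39, 6.73 and 3.83 FPKM under submergence and 5.18, 6.11 and 4.93 FPKM under flooding. The PER63 groups overlapped, and its log2 values were -0.24 (SE 0.22, adjusted p = 0.5004) and -0.27 (SE 0.13, adjusted p = 0.173), where PER31 rose in both. PER70, the neighbour of PER71, was at 1.01, 1.36 and 1.71 FPKM in the controls, 7.54, 2.83 and 0.02 FPKM under submergence and 5.32, 3.78 and 0 FPKM under flooding. In PER70 the stressed samples thus lay on both sides of the controls. The difference in response between relatives was not tested.

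A second pattern ran across the groups. In 11 of the 30 members with a mean of at least 0.5 FPKM, the lowest value within each of the 3 groups was in the sample low in STM and KNAT1, where 14.5% of all 18856 genes at that mean showed the same. These 11 were PER15, PER21, PER22, PER23, PER30, PER33, PER37, PER42, PER49, PER54 and PER67. PER30 was at 5.73, 1.55 and 4.88 FPKM in the controls, 18.3, 8.47 and 1.40 FPKM under submergence and 13.0, 14.7 and 1.95 FPKM under flooding. PER67 was at 5.33, 2.53 and 2.64 FPKM in the controls, 9.58, 5.47 and 0.86 FPKM under submergence and 5.32, 6.47 and 0.66 FPKM under flooding. PER23 was listed at 0 in all 3 of those samples and stood between 0.58 and 2.02 FPKM in the other 6. The transcripts of PER22 and PER23 share 23 stretches of 50 identical bases, so the split of reads between them is uncertain. PER15 and PER37 also share such stretches, 87 and 105, each with a neighbouring member. The pools were of rosettes, and the amount of apex tissue in each is not given in the sources used here. With the summed apex markers as a covariate over all 9 samples, 0 of the 11 rose and 1 fell in each comparison with control, PER33 in both. Its log2 values were then -1.30 (SE 0.34, adjusted p = 0.0299) under submergence and -1.55 (SE 0.34, adjusted p = 0.00861) under flooding, and without the 3 samples low in the markers they were 0.17 (SE 0.46, adjusted p = 0.871) and -0.33 (SE 0.18, adjusted p = 0.249). The sign of PER33 under submergence thus differed between these fits. The share of all genes called in the covariate fit was not counted, so the count among the 11 has no background. The 11 were also picked by the samples low in the same markers that served as the covariate.

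**Figure D4:**
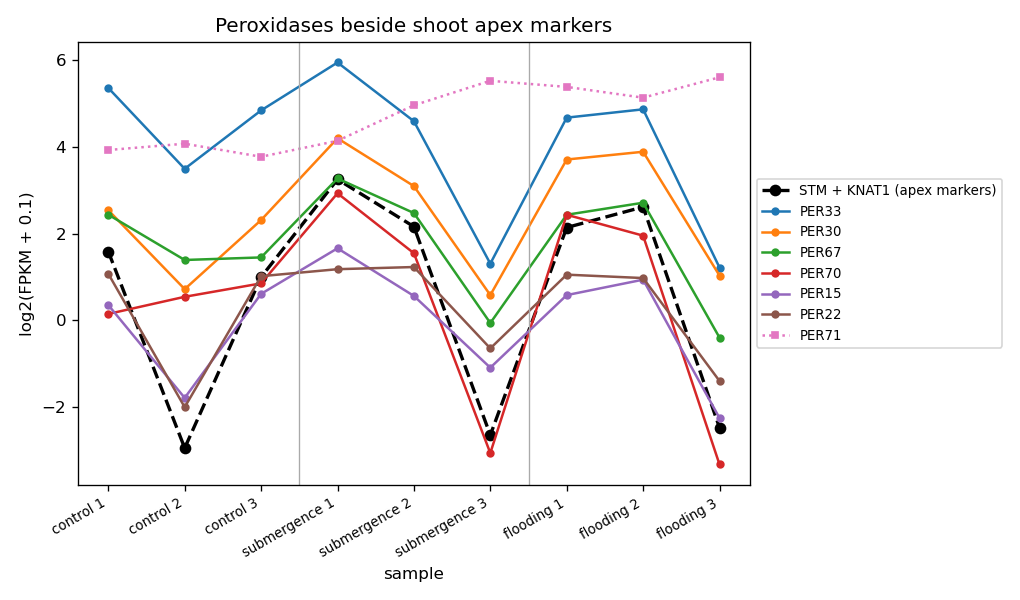
Log2(FPKM + 0.1) of 7 members and of the summed apex markers STM and KNAT1 in the 9 samples, with lines that only join the samples of a gene. PER33, PER30, PER67, PER15 and PER22 dip with the markers in control 2, submergence 3 and flooding 3, PER70 dips in the last 2 of these, and PER71 is highest in its group in all 3; the genes were chosen after their values were seen.

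Leaving out control 2, submergence 3 and flooding 3 together changed which members passed. Under submergence 2 members then rose, PER4 and PER31, and under flooding 7 rose, PER4, PER62, PER71, PER31, PER30, PER53 and PER70. The number that fell was 0 in both. Submergence 1, the sample with the most STM and KNAT1, had the lowest submergence level of PER4, PER62, PER71, PER31, PER50, PER51 and PER53. These are the 7 members with an unadjusted p under 0.05 upward in limma under submergence. The share of all genes lowest in submergence 1 was not counted. Without submergence 1, 7 members rose under submergence, with PER71, PER51 and PER53 added. Without flooding 3 alone, the same 7 members as without all 3 samples rose under flooding. The shares of all genes called in these smaller sets were not counted, so the numbers of members have no background here.

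Genes that act with the peroxidases were read from lists by function. Of 10 RBOH genes, the NADPH oxidases that supply superoxide to the wall, 3 were tested. Of these, 1 rose under submergence and 2 under flooding, where 9.03% and 11.4% of all genes did. RBOHD, the main burst oxidase of leaves, was at 26.9, 22.7 and 23.2 FPKM in the controls, 58.2, 79.2 and 75.0 FPKM under submergence and 151, 140 and 150 FPKM under flooding. The 3 groups of RBOHD did not overlap, and its log2 values against control were 1.53 (SE 0.13, adjusted p = 0.00111) and 2.599 (SE 0.091, adjusted p = 4e-06), with an adjusted p of 0.107 for flooding against submergence. RBOHF rose under flooding, by 1.12 (SE 0.12, adjusted p = 0.000510) on the log2 scale. Under submergence its log2 value of 0.88 (SE 0.32, adjusted p = 0.109) did not pass. RBOHC was not called, with log2 values of 0.50 (SE 0.63, adjusted p = 0.637) under submergence and 1.51 (SE 0.53, adjusted p = 0.0704) under flooding.

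Of 19 genes of monolignol synthesis, which makes the phenolic substrates of lignin, 6 rose and 1 fell under submergence, and 9 rose and 1 fell under flooding, beside the same shares of all genes as above (9.03% and 8.45%, then 11.4% and 17.2%). CCR2, a cinnamoyl-CoA reductase induced by pathogens, rose by 1.73 (SE 0.38, adjusted p = 0.0229) under submergence and by 3.02 (SE 0.33, adjusted p = 0.000488) under flooding on the log2 scale. HCT, an acyltransferase of the same pathway, fell by 0.42 (SE 0.12, adjusted p = 0.0492) and by 0.64 (SE 0.095, adjusted p = 0.00238). The median log2 fold change of the list was 0.30 and 0.35, against -0.031 and -0.10 over all genes. Of 17 laccases, which oxidize monolignols with oxygen instead of hydrogen peroxide, 8 were tested and 1 rose in each comparison with control, LAC8, by 1.19 (SE 0.23, adjusted p = 0.0146) and 1.36 (SE 0.19, adjusted p = 0.00163).

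Of 11 ascorbate peroxidases and catalases, the enzymes that remove hydrogen peroxide inside the cell, 10 were tested and 0 rose. Under submergence 2 fell, APX1 by 0.45 (SE 0.084, adjusted p = 0.0128) and SAPX by 0.33 (SE 0.077, adjusted p = 0.0286) on the log2 scale. Under flooding 1 fell, CAT1, by 0.29 (SE 0.084, adjusted p = 0.0363). Over all genes, 9.03% rose and 8.45% fell under submergence, and 11.4% rose and 17.2% fell under flooding. The median log2 fold change of this list was -0.20 and -0.24, against -0.031 and -0.10 over all genes.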

How the data were processed

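RNA of 9 shoot samples was sequenced. After trimming and mapping with STAR to TAIR10, the authors deposited FPKM per gene and sample, normalized to total counts and transcript length. The methods name featureCounts and the deposited table names RSEM; which one made the values is not settled. The reads behind an FPKM value are unknown, so no counting error is given. The columns of the stressed samples name the stresses only by number and were assigned through the headings of the study's supplementary MA plots; 0 columns belonged to other samples.

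Genes averaging 0.5 FPKM or more over the 6 samples of a comparison were taken as log2(FPKM + 0.1) and fitted with limma 3.58.1 under R 4.3.3 (eBayes with trend, two-sided), with Benjamini-Hochberg adjustment over all genes tested and calls at an adjusted p under 0.05. Fold changes on this scale understate those of low genes. The test was tried on simulated data, whose outcome is not given here and is not used as support. The methods call the samples independent biological replicates, each a pool of plants. Alternatives were a pseudocount of 1, no filter, a mean of at least 2, 2 other scalings, eBayes without trend, 1 fit of all samples, the replicate block, a minimum fold change of 2 and leaving out each sample; leaving out the 3 samples low in apex markers and an apex marker covariate were added after seeing the data.

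Members named are those called, the 8 most abundant, those in role lists with a mean of at least 0.5 FPKM, and those with at least 80% protein identity to a called member; of other lists up to 4 called genes. PER5, PER63, PER70, PER56, RBOHC and the members described with the apex markers were named after their values were seen. The members and lists were chosen with earlier results of these data known. All 70 members matched RefSeq TAIR10.1 by locus and coordinates; identities are of proteins translated from its coding sequences, aligned with Biopython 1.88. Other steps used pandas 2.3.3, numpy 2.4.6 and matplotlib 3.10.9 under Python 3.11.15.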

Additional observations from a re-analysis of the deposited data

How the results depend on the processing

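The rises of PER4 and PER31 under both stresses and of PER62 and PER71 under flooding kept their direction and stayed past the threshold in all 16 alternatives. The 4 members up under submergence became 2 without the samples low in apex markers and 2 to 7 on leaving out single samples, and the 4 up under flooding became 7 and 4 to 7. The 1 member down under submergence became 0 with no filter on low values, with eBayes without the trend, with a fold change of at least 2 and without the samples low in apex markers, 2 (PER12 and PER33) with the apex marker covariate and 0 to 1 on leaving out single samples. The 1 member down under flooding became 0 with median-of-ratios rescaling, eBayes without the trend, the replicate block, a minimum fold change of 2 and without the samples low in apex markers, 2 with the apex marker covariate, and 0 to 2 on leaving out single samples. Beyond the smaller sets of samples, the cause was not tested. Among the alternatives, calls over all genes were counted only for the 2 other scalings. For the rest, the smaller sets included, the shares of all genes called were not counted.

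PER50 under flooding against control turned to 0.0435 with median-of-ratios rescaling and to 0.0619 without the samples low in apex markers, and ran from -0.190 to 0.0717 over all alternatives. PER12 for flooding against submergence, at 0.0181, turned to -0.0169 without those samples, and ran from -0.0307 to 0.0954, with 0.0594 without submergence 1. Neither was called. Correlations across genes of same-numbered samples ran from -0.14 to 0.11 for submergence against control and from -0.15 to 0.12 for flooding against control. For flooding against submergence they were 0.064, 0.16 and 0.47. In none of the 3 comparisons were all pairs above 0.1, so the numbers were not taken to pair the samples. With the replicate block 4 members rose under submergence (PER4, PER31, PER51 and PER62), 4 rose under flooding and 0 fell under flooding. The share of all genes called with the block was not counted. Rescaling by median of ratios changed the genes called under flooding from 2137 up and 3229 down to 2597 up and 2333 down, and quantile normalization changed those under submergence from 1698 up and 1590 down to 1562 up and 2199 down.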
